A study of Mus musculus with 2 samples.

Results

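The genes described here are Bok, Bcl2, Casp8, Cflar and Mdm4, which act on the decision between cell survival and cell death. They were picked by symbol, with earlier results of these data known, and all 5 were among the 1068 genes analysed here. LβT2 is an immortalised mouse cell line of the anterior pituitary with features of the gonadotrope, and gonadotropin-releasing hormone (GnRH) is the hypothalamic peptide that makes gonadotropes secrete luteinising and follicle-stimulating hormone. The cultures, both at passage 15 and with no genetic change between them, were given GnRH at 2 nM or its vehicle, and exposure lasted 40 min. Cells were captured in droplets and their transcripts read from the 3′ end (GEM Drop-seq). About 8000 cells were loaded per treatment, and 1992 vehicle-treated and 1889 GnRH-treated cells were called, in 1 library per treatment.

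Cell death through the mitochondria is set by the BCL2 family, in which guardians such as Bcl2 hold the outer membrane intact and effectors such as Bok can open it. Death receptors at the cell surface act instead through the protease Casp8, whose activation Cflar (also called c-FLIP) restrains as an inactive relative of the protease. Mdm4 binds the tumour suppressor p53 and keeps it from activating its target genes, which include death genes as well as Btg2.

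In these cells GnRH treatment left the level of 4 of the 5 genes within 1.5-fold of vehicle, while Bok, the scarcest, was 1.51-fold higher. Of 409 genes with enough UMIs, 2.44% were at least 1.5-fold higher and 1.71% at least 1.5-fold lower. The Bok ratio ran from 1.43-fold to 1.84-fold under other scalings, cell filters and thinning. Bcl2, Cflar and Mdm4 were each found in between 38.2% and 50.6% of cells, Casp8 in 18.1% and 17.5%, and Bok in 4.67% of vehicle-treated and 7.09% of GnRH-treated cells. Mdm4 and Bcl2 varied between cells by more than counting gives, and Casp8, Cflar and Bok by little more. The same unevenness gives a smaller excess over counting in a scarcer gene, so this is no ranking of the 5 genes. With 1 library per treatment no difference has a replicate check, no test was made, and intervals cover counting error only.

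Levels are sums of unique molecular identifiers (UMIs, tags that mark each captured transcript) over all called cells of a library, scaled to 1000000 UMIs of the 1068 analysed genes (CPM). These genes came to 1126320 UMIs for vehicle and 1118763 in the GnRH library, all but a few placed on chromosome 1, so CPM here is not CPM of the transcriptome. Cells held a median of 543.5 of these UMIs for vehicle and 561 in the GnRH library. Of the gonadotrope markers, Inha had 2024 vehicle and 2281 GnRH UMIs and Inhbb 4001 and 3274. The fibroblast collagen gene Col3a1 had 0 UMIs in both libraries, which by a fixed limit of 3 UMIs per library allows up to 2.66 CPM for vehicle and 2.68 CPM in the GnRH library. The genes that define other pituitary cell types were not analysed here.

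Bok lies on the plus strand of chromosome 1, from 93685660 to 93695764 in GRCm38 (GENCODE), and Bcl2 on its minus strand, from 106538178 to 106714274. The 250 bases before the RefSeq start of each gene are given as a description, and no relation of these letters to the ratios was tested. That start is at 93685575 for Bok and at 106714290 for Bcl2, which is 85 and 16 bases upstream of the GENCODE start. The sequences are RefSeq's for GRCm38.p6 and read 5′ to 3′ on the strand of the gene, with matches to the motifs named next in capitals.
Bok, chr1:93685325-93685574, plus strand: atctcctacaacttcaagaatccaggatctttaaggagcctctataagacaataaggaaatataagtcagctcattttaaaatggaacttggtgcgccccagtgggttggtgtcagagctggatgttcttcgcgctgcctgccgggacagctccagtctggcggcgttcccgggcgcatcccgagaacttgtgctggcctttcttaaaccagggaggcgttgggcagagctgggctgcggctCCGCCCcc
Bcl2, chr1:106714291-106714540, minus strand: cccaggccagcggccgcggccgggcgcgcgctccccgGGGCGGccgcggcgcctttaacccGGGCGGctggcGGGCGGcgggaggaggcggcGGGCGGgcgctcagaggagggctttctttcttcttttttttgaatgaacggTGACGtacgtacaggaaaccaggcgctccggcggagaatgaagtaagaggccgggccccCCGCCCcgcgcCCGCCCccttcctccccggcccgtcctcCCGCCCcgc

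The letters searched on both strands were the cyclic AMP response element (CRE, TGACGTCA), its core (TGACG), the AP-1 element (TGACTCA), the EGR1 element (GCGTGGGCG or GCGGGGGCG) and the GC box (GGGCGG). A full CRE holds the core within it. Bok had 1 GC box, starting 8 bases before its RefSeq start, and none of the other motifs. Bcl2 had 7 GC boxes and 1 CRE core, starting 107 bases before its RefSeq start. Among 32536 distinct windows of this length, 33.0% held a GC box, 17.9% a CRE core, 1.56% a full CRE, 4.45% an AP-1 element and 3.09% an EGR1 element. The windows of Casp8 and Cflar held none of these motifs, and of 2 windows of Mdm4 1 held an AP-1 element. Guanine and cytosine made up 55.2% of the Bok and 74.8% of the Bcl2 window.

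The first comparison was of the BCL2 family genes between GnRH-treated and vehicle-treated cells. Bok (ENSMUSG00000026278), which overlaps no other annotated gene, had 100 vehicle and 150 GnRH UMIs. These are 88.8 CPM (95% Poisson interval 72.2 to 108) and 134 CPM (113 to 157), and the 2 intervals did not overlap. The ratio of GnRH over vehicle was 1.51-fold (exact conditional interval 1.16 to 1.96), or 0.59 on the log2 scale (0.22 to 0.97). Genes with at least 100 UMIs over both libraries were called by size alone. By this rule Bok was 1 of 10 genes at least 1.5-fold higher, or 2.44% of 409, and the tenth in order. It stood at the edge of the call, with Ppp1r15b at 1.52-fold just above it and Nuak2, at 1.48-fold, just below the limit. The Bok ratio was under 1.5-fold as a mean of CPM per cell, at 1.43-fold, and without the 5% of cells with most UMIs, at 1.47-fold. Under the other 6 alternatives it was between 1.52-fold and 1.84-fold, the highest after thinning to 300 UMIs per cell.

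Bcl2 (ENSMUSG00000057329) had 1248 vehicle and 1216 GnRH UMIs. Its level was 1108 CPM (1047 to 1171) for vehicle and 1087 CPM (1027 to 1150) in the GnRH library. The log2 ratio was -0.03 (-0.14 to 0.09), which places the ratio between 0.906-fold and 1.06-fold as far as counting error goes. Bcl2 varied between cells by more than counting, so that this interval is too narrow. The sign of its log2 ratio depended on the scaling, with 0.06 under TMM (trimmed mean of M-values) and 0.05 under median-of-ratios. The gene overlaps a transcript on the opposite strand and 2 small features on its own, and whether counting used strand was not stated. The ratio of Bok to Bcl2 UMIs within a library needs no scaling between libraries. It was 0.0801 (0.0647 to 0.0983) for vehicle and 0.123 (0.103 to 0.146) in the GnRH library. The intervals were apart, but this measure uses the same Bok UMIs and is no second support for the Bok ratio.

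**Figure D1:**
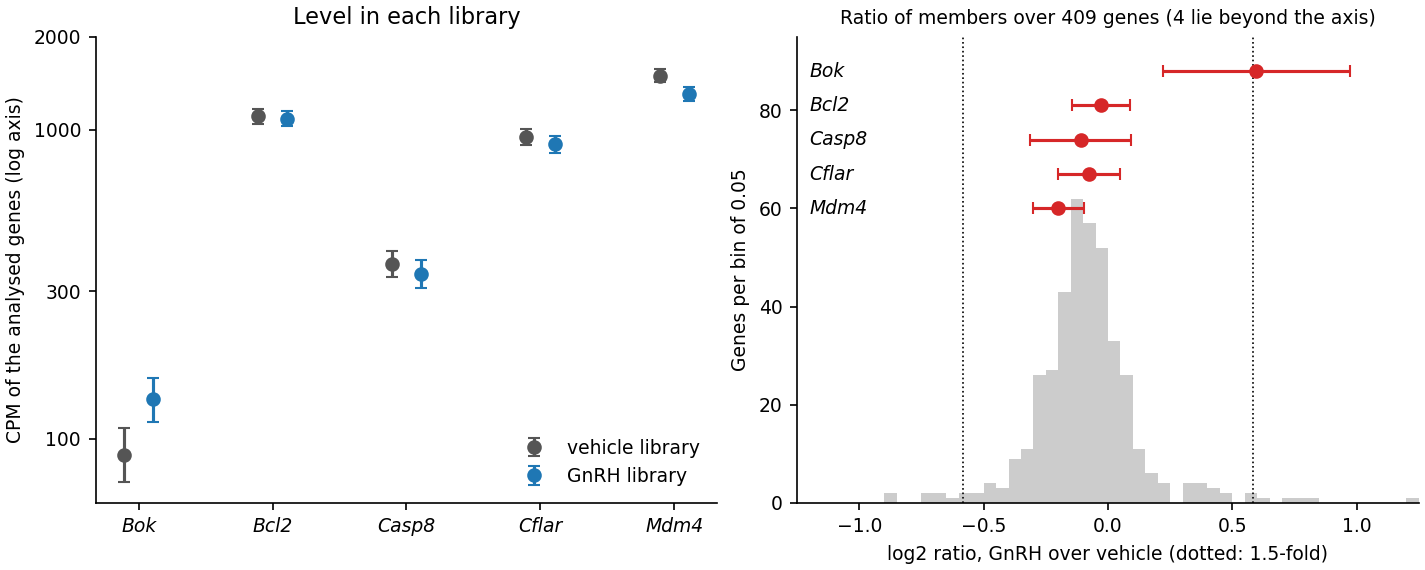
Left, level of each of the 5 genes in CPM of the analysed genes (log axis) for vehicle and GnRH libraries, with 95% Poisson intervals. Right, log2 ratio of GnRH over vehicle with its counting interval (red, placed by row) above the distribution of 409 genes (grey), in which Bok at 0.59 sits at the 1.5-fold line and the other genes lie between -0.20 and -0.03.

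Casp8 and Cflar of the death receptor pathway lie next to each other on the plus strand of chromosome 1. Cflar (ENSMUSG00000026031) runs from 58711508 to 58758884 and Casp8 (ENSMUSG00000026029) from 58795374 to 58847503 in GRCm38, with 36489 bases between them. Casp8 had 415 vehicle and 382 GnRH UMIs, or 368 CPM (334 to 406) and 341 CPM (308 to 377). Its log2 ratio was -0.11 (-0.31 to 0.09). Cflar was counted at 1067 and 1005 UMIs, or 947 CPM (891 to 1006) and 898 CPM (844 to 956), a log2 ratio of -0.08 (-0.20 to 0.05). Both log2 ratios were near the median of all 409 genes, which was -0.09 with an interquartile range of -0.19 to 0.00. The sign of Cflar changed with the scaling, to 0.01 under TMM and 0.0042 under median-of-ratios, whereas Casp8 was at -0.02 and -0.03. Cflar UMIs outnumbered those of Casp8 by 2.57 to 1 (2.29 to 2.89) for vehicle and by 2.63 to 1 (2.34 to 2.97) in the GnRH library. The balance of inhibitor to protease transcripts thus differed between the libraries by less than counting error. Casp8 overlaps an unclassified transcript on its own strand, and no annotated gene overlaps Cflar.

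Mdm4 (ENSMUSG00000054387), which lies on chromosome 1 between 132959484 and 133030561 (minus strand, GRCm38), was the most abundant of the 5 genes in both libraries. It had 1683 vehicle and 1456 GnRH UMIs, or 1494 CPM (1424 to 1567) and 1301 CPM (1235 to 1370). The GnRH level was lower, with a log2 ratio of -0.20 (-0.30 to -0.10) and intervals that did not overlap. This was well within 1.5-fold, and 22.2% of the 409 genes had a lower ratio. The median log2 ratio of these genes was -0.09, and the Mdm4 interval was not shifted for it. The Mdm4 log2 ratio was below 0 under all 8 alternatives (other scalings, cell filters and thinning), from -0.29 after thinning to -0.11 under TMM. A processed pseudogene overlaps Mdm4 on the opposite strand. Mdm4 varied between cells by more than counting, so that its interval is too narrow.

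Over the 5 genes, each of which had at least 100 UMIs, 1 was at least 1.5-fold higher and 0 were at least 1.5-fold lower, against 2.44% and 1.71% of all 409 genes. The median log2 ratio was -0.08, against -0.09 over the 409. In order of UMIs the vehicle library had Mdm4, Bcl2, Cflar, Casp8 and Bok, and the GnRH library the same. No 2 neighbours in this order had overlapping intervals in either library. UMIs of this assay are counted at the 3′ end and not per length, and capture can differ between genes, so the order is one of UMIs and not of transcripts per cell.

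The share of cells with a UMI was examined next. Bok was detected, with 1 UMI or more, in 93 vehicle-treated cells and 134 GnRH-treated cells. These are 4.67% (exact binomial interval at 95%, 3.78 to 5.69%) and 7.09% (5.98 to 8.35%). To compare at equal depth, each cell was thinned to 300 UMIs, which left 1773 vehicle and 1781 GnRH cells. The Bok shares were then 2.20% (1.57 to 2.99%) and 3.93% (3.08 to 4.94%), with intervals apart as before. Of cells with Bok, 7.53% for vehicle and 10.4% in the GnRH library had 2 or more UMIs, and no cell had over 3. Most cells with Bok thus carried a single UMI of it, so that the share of cells largely repeats the UMI sum. Poisson counting at the level of each library gave an expected share of 4.88% for vehicle and 7.59% in the GnRH library. The larger share in the GnRH library is therefore not a result apart from the higher level.

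Mdm4 was found in 1008 vehicle-treated cells, or 50.6% (48.4 to 52.8%), and in 853 GnRH-treated cells, or 45.2% (42.9 to 47.4%). After thinning the shares were 33.6% (31.4 to 35.8%) and 27.1% (25.01 to 29.2%). The share of cells with Mdm4 was lower in the GnRH library on both measures. Bcl2 was found in 39.5% (37.4 to 41.7%) and 40.2% (37.96 to 42.4%) of cells, Cflar in 38.8% (36.7 to 41.0%) and 38.2% (36.02 to 40.5%), and Casp8 in 18.1% (16.5 to 19.9%) and 17.5% (15.8 to 19.3%). The intervals of the 2 libraries overlapped for each of these 3 genes, before and after thinning. UMIs from free RNA could not be measured, since both libraries hold 1 cell line, and are part of these shares.

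**Figure D2:**
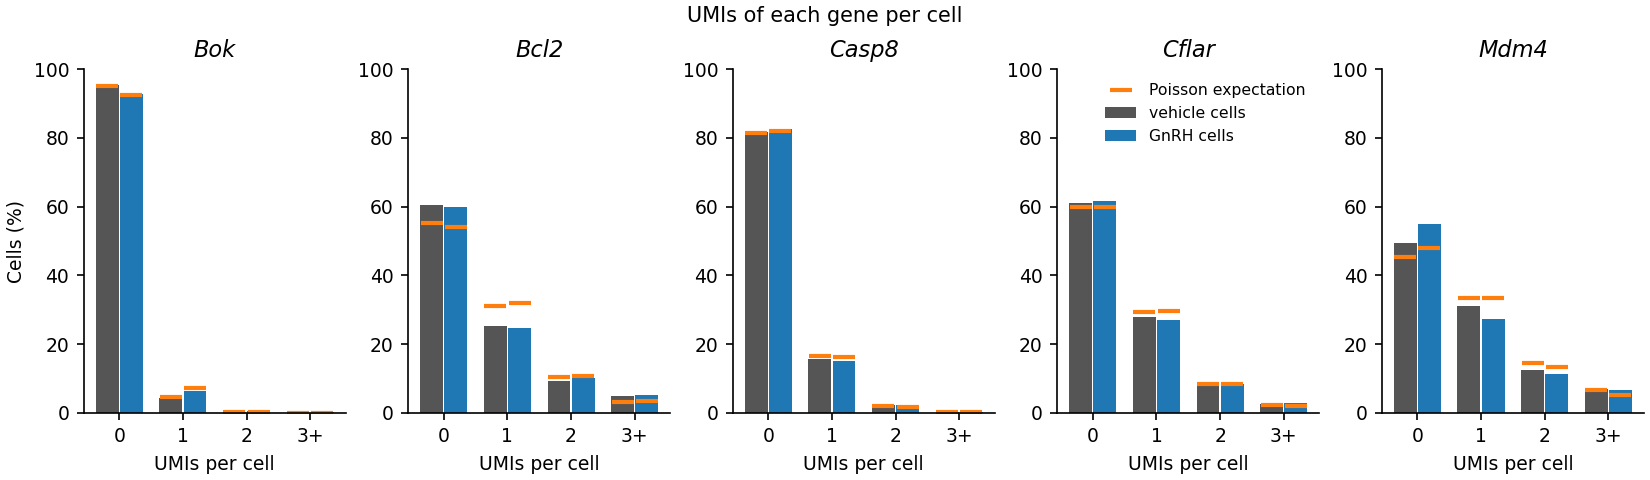
Percentage of vehicle-treated (grey) and GnRH-treated (blue) cells with 0, 1, 2 or 3 and more UMIs of each gene, with the Poisson expectation given the UMI total of each cell (orange). Cells without Bcl2 or Mdm4 exceed the expectation in both libraries, while Bok and Casp8 lie close to it.

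The study asked how far cells differ beyond counting noise. The measure of spread was the squared coefficient of variation over the value expected from Poisson counting in cells of these UMI totals, so that 1 means no excess. Mdm4 was at 1.47 in vehicle-treated and 1.68 in GnRH-treated cells, ranks 22 of 344 and 18 of 342 among genes whose mean reached 0.1 UMI per cell. Bcl2 was at 1.48 and 1.41, ranks 21 and 34. A ratio of at least 1.5 was reached by 5.81% of these genes for vehicle and 6.73% in the GnRH library. Mdm4 in GnRH-treated cells passed it, and Bcl2 and Mdm4 in vehicle-treated cells stood just under it. Thinning to 300 UMIs, which lowers means, took Mdm4 to 1.27 in vehicle-treated and 1.34 in GnRH-treated cells. The difference between the libraries was not tested.

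The excess lay at both ends of the distribution. Cells with 5 or more Mdm4 UMIs numbered 33 in the vehicle library against 8.25 expected, and 34 in the GnRH library against 5.01, with up to 12 and 13 UMIs in a cell. Cells without Mdm4 made up 49.4% and 54.8%, against 45.4% and 48.1% expected. For Bcl2, 19 vehicle and 15 GnRH cells had 5 or more UMIs, against 2.47 and 2.41 expected. The 5% of cells with most Mdm4 UMIs held 26.1% of them for vehicle and 28.8% in the GnRH library. Without the single cell richest in Mdm4, a choice made after seeing the data, the spread ratio was 1.41 and 1.61.

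Casp8 was at 1.06 and 1.08, near the median of all genes of 1.07 in both libraries, with ranks 184 and 167. Cflar was above the median at 1.13 and 1.12, with ranks 97 and 116. Bok, with a mean of 0.0502 and 0.0794 UMIs per cell, was under the minimum and was not ranked. Its ratios were 1.08 and 1.15, and at such means the measure shows little of any excess. Cells with 2 Bok UMIs numbered 7 in the vehicle library against 2.74 expected, and 12 in the GnRH library against 6.13.

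**Figure D3:**
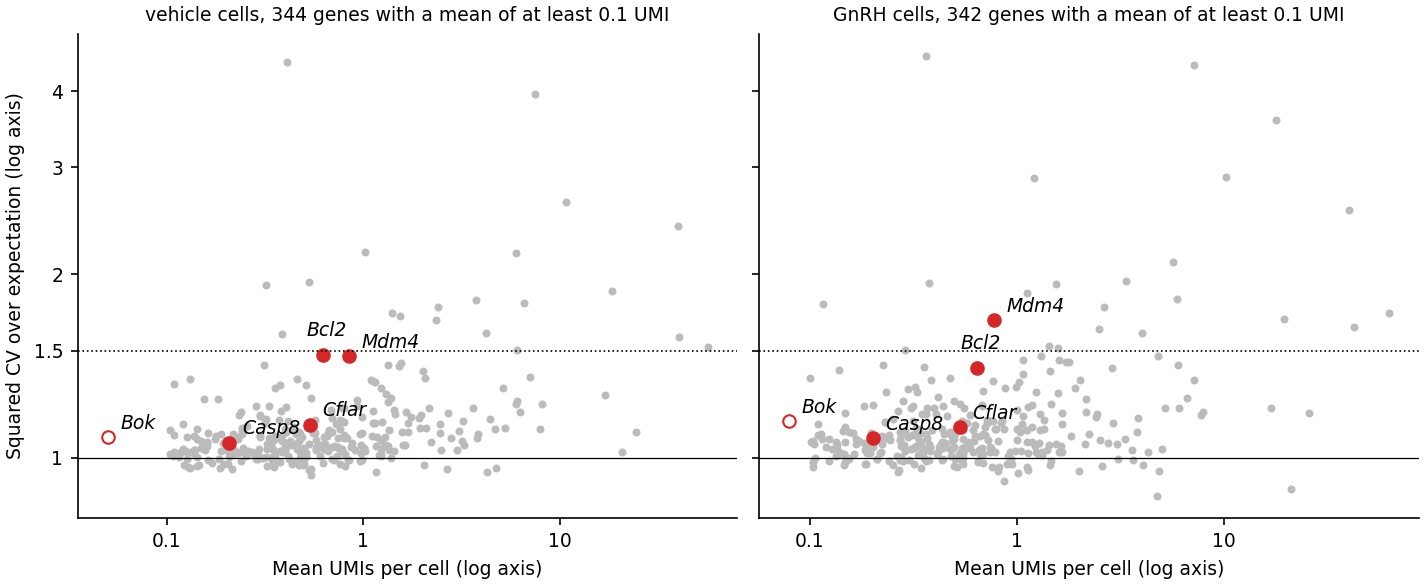
Squared coefficient of variation over its Poisson expectation against mean UMIs per cell (both log axes) for genes whose mean reached 0.1 UMI (grey) and the 5 genes (red, Bok open because its mean is lower). Mdm4 and Bcl2 lie near the dotted line at 1.5, with Mdm4 at 1.68 in GnRH-treated cells, and Casp8 and Cflar lie close to 1.

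Cells were then examined for the 5 genes together. Of vehicle-treated cells, 18.8% (17.1 to 20.6%) had no UMI of any of them, 32.2% had UMIs of 1 gene and 30.5% of 2. Of GnRH-treated cells, 19.0% (17.2 to 20.8%) had none, 34.0% had 1 and 30.4% had 2. UMIs of all 5 genes were found in 3 vehicle-treated and 4 GnRH-treated cells. After thinning, 32.9% of vehicle-treated and 36.7% of GnRH-treated cells had none.

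For each of the 10 pairs, cells with both genes were set against the number expected if the genes were independent given the UMI total of each cell. Casp8 and Cflar, the protease and its inhibitor, were found together in 145 vehicle-treated cells against 165 expected, and in 125 GnRH-treated cells against 149.7. Bok and Bcl2 were found together in 45 vehicle-treated cells against 48.7 and in 68 GnRH-treated cells against 72.1. In each library 9 of the 10 pairs were under this expectation, which overstates how many cells hold a gene that is unevenly spread. With the detection of each gene scaled to its observed share of cells, a choice made after seeing the data, the expected number lay within the exact binomial interval of the observed one for all 10 pairs in both libraries. The ratio of observed to expected cells then ran from 0.929 to 1.40 for the vehicle and from 0.907 to 1.22 for GnRH. Casp8 and Cflar were at 0.929 and 0.907, and Bok and Casp8, the pair with the fewest shared cells, at 1.40 and 1.22.

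Correlations over thinned cells were close to 0. Among the 10 pairs Pearson's r of log2(UMIs + 1) lay between -0.03 and 0.05 in both libraries. The genes most like each of the 5, by the lower of the r values of the 2 libraries, reached at most 0.0818. These were Ptma, Dtymk and Stradb for Bok, with the lower r between 0.0502 and 0.0818. Cntnap5a, Dtymk and Ptpn4 followed Bcl2 most closely (0.0405 to 0.0520), Mcm6, Ptma and Cspp1 Casp8 (0.0396 to 0.0598), and Fam72a, Ppip5k2 and 2810459M11Rik Cflar (0.0472 to 0.0632). For Mdm4 they were Hjurp, Nucks1 and Mreg (0.0618 to 0.0707). Cells of a library share its depth and base composition, and values this low in sparse counts are given as a description only.

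Btg2, an antiproliferative early response gene and p53 target, lies 1044608 bases beyond Mdm4 on the same chromosome. It was 32.2-fold higher in the GnRH library and served to sort GnRH-treated cells, with Btg2 left out of the totals. Cells with 0 to 2 Btg2 UMIs held 6 Bok UMIs in 262 cells, or 55.0 CPM (20.2 to 119.7). Cells with 3 to 13 were at 132 CPM (96.8 to 176), cells with 14 to 26 at 145 CPM (105 to 195), and cells with 27 or more at 166 CPM (125 to 216). Bok was thus 3.01-fold higher (1.299 to 8.56) in the cells with most Btg2 than in those with least, the fourth highest ratio of 379 genes, of which 9.23% were at least 1.5-fold higher. The cells with least Btg2 were also shallower, with a median of 435.5 UMIs other than Btg2 against 630 in the class with most, and the part of depth in this result was not tested. When the Btg2 classes were taken from cells thinned to 300 UMIs, Bok was at 114 CPM (73.3 to 170), 146 CPM (117 to 179) and 150.4 CPM (104 to 211) in the first 3 classes. The intervals of these 3 classes overlapped. The highest class then held 37 cells and a single Bok UMI, or 53.1 CPM (1.34 to 296), which is below the lowest class, so the direction between the outer classes turned. Without cells under 300 UMIs other than Btg2, a choice made after seeing the data, Bok was at 60.9, 130.04, 146 and 166 CPM, in the first order again. The lowest class still held the same 6 Bok UMIs, and depth still differed between the outer classes, with medians of 473 and 632 UMIs.

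Of the other 4 genes, Mdm4 had the same order of classes and Bcl2, Cflar and Casp8 did not. Across these classes Bcl2 went from 1082 CPM (895 to 1295) through 1227 and 1161 to 985 CPM (881 to 1098), and Cflar from 907 CPM (738 to 1105) through 1043 and 945 to 792 CPM (699 to 894). Casp8 was between 321 and 386 CPM with overlapping intervals. Mdm4 was at 1137 CPM (945 to 1355) in the cells with least Btg2, then at 1276 and 1360 CPM, and at 1461 CPM (1334 to 1597) in the cells with most Btg2, a 1.29-fold difference (1.053 to 1.58). None of the 4 differed by 1.5-fold between these outer classes. With classes from thinned cells Cflar was at 929.5 CPM (804 to 1069.6) in the cells with least Btg2 and at 478 CPM (218 to 907) in the 37 cells with most, the latter from 9 UMIs, with overlapping intervals. Between the same classes Bcl2 was at 1111 and 903 CPM, Casp8 at 353 and 478 CPM and Mdm4 at 1244 and 1858 CPM.

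In vehicle-treated cells sorting by Btg2 was added after seeing the data, with lower limits between classes, so that these classes are not those of GnRH-treated cells. Mdm4 was at 1323 CPM (1240 to 1410) in 1358 cells without Btg2, at 1595 CPM (1465 to 1733) in 545 cells with 1 or 2 Btg2 UMIs and at 2863 CPM (2465 to 3307) in 89 cells with 3 or more. The outer classes differed by 2.16-fold (1.84 to 2.54), the third highest ratio of 381 genes, of which 7.61% were at least 1.5-fold higher. At least 1 Mdm4 UMI was found in 45.8% of cells of the lowest and 73.0% of the highest class. Cflar was 1.57-fold higher (1.24 to 1.97) and Bcl2 1.496-fold higher (1.20 to 1.84) in the highest class, while Casp8 at 1.21-fold (0.779 to 1.80) and Bok at 1.40-fold (0.539 to 3.09) had intervals that included 1. Depth moved with the classes, from a median of 509 to 657 UMIs, and its part in the result was not tested. The Poisson intervals are too narrow for Mdm4 and Bcl2, which varied by more than counting. With classes from thinned cells Mdm4 was at 1368, 1802 and 4260 CPM, the last from 51 UMIs in 19 cells (3172 to 5601). Without cells under 300 UMIs it was at 1312, 1571 and 2853 CPM. Between the outer classes from thinned cells Bcl2 went from 1075 to 2088 CPM and Cflar from 909 to 1420 CPM. Casp8 went from 366 to 418 CPM, and Bok from 82.8 CPM to 0 UMIs in the 19 cells. Whether the relation of Mdm4 to Btg2 differed between vehicle-treated and GnRH-treated cells was not tested.

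**Figure D4:**
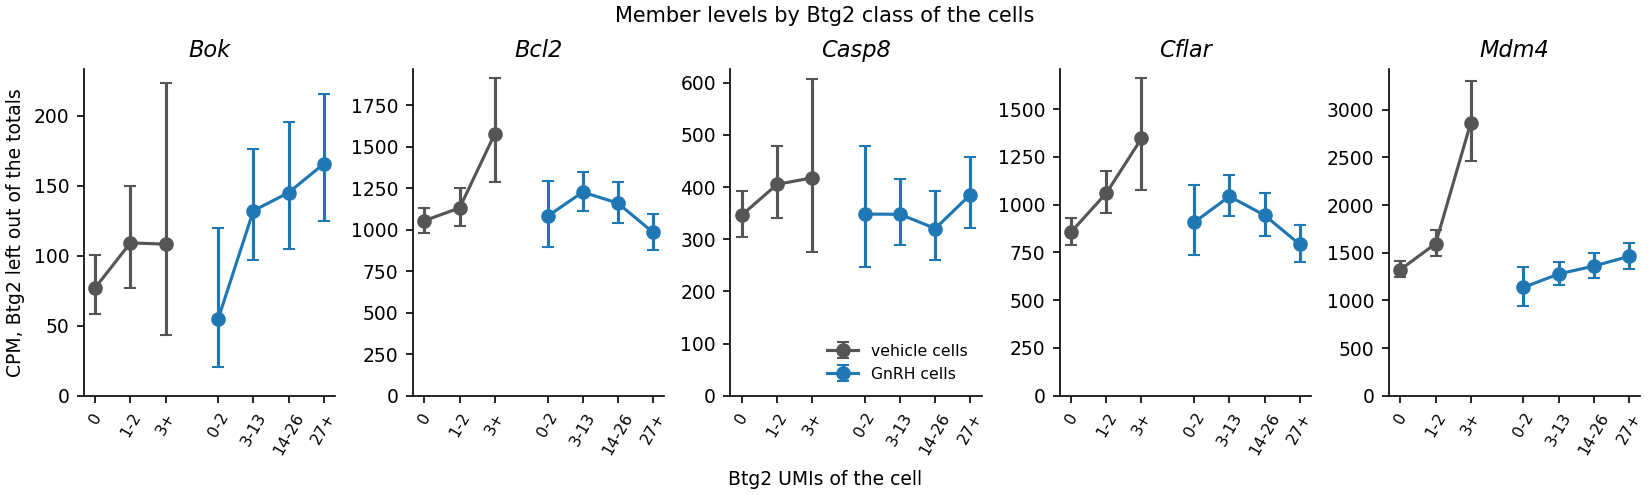
Level of each gene in CPM (Btg2 left out of the totals, 95% Poisson intervals) in vehicle-treated cells (grey) with 0, 1 to 2 or 3 and more Btg2 UMIs and in GnRH-treated cells (blue) with 0 to 2, 3 to 13, 14 to 26 or 27 and more. Bok is lowest, at 55.0 CPM, in GnRH-treated cells with least Btg2, and Mdm4 is highest, at 2863 CPM, in vehicle-treated cells with most.

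The genes around each of the 5 were compared to see whether a ratio was shared along the chromosome. Of 8 genes with at least 100 UMIs within 200 kb of Bok, 0 were at least 1.5-fold higher or lower, where 2.44% and 1.71% of all genes were, so that a count of 0 is near the background. Their log2 ratios ran from -0.36 (D2hgdh) to 0.13 (Ing5). Thap4, 6171 bases from Bok and the nearest of them, stood at -0.23 from 1482 and 1251 UMIs (-0.34 to -0.13). The autophagy protease gene Atg4b was at -0.12 (-0.25 to 0.01) and the kinase gene Stk25 at -0.11 (-0.22 to -0.01).

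Near Casp8 and Cflar, Trak2 was at -0.08 (-0.24 to 0.08), Ndufb3, a subunit of respiratory complex I, at -0.14 (-0.18 to -0.10), Stradb at -0.27 (-0.48 to -0.07) and Fam126b at -0.03 (-0.15 to 0.09). The non-coding Gm15834, which overlaps Fam126b, was at -0.86 (-1.41 to -0.31) with 82 and 45 UMIs. Bcl2 had Kdsr at -0.09 (-0.24 to 0.05), Vps4b at -0.07 (-0.15 to 0.0028) and Phlpp1 at 0.15 (-0.03 to 0.34) beside it. Of the 4 neighbours of Mdm4, Ppp1r15b, which encodes a phosphatase subunit of the integrated stress response, went against the rest at 0.61 (0.51 to 0.71) from 1329 and 2009 UMIs. Lrrn2, Pik3c2b and Plekha6 were between -0.07 and 0.01, and Mdm4 itself at -0.20.

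**Figure D5:**
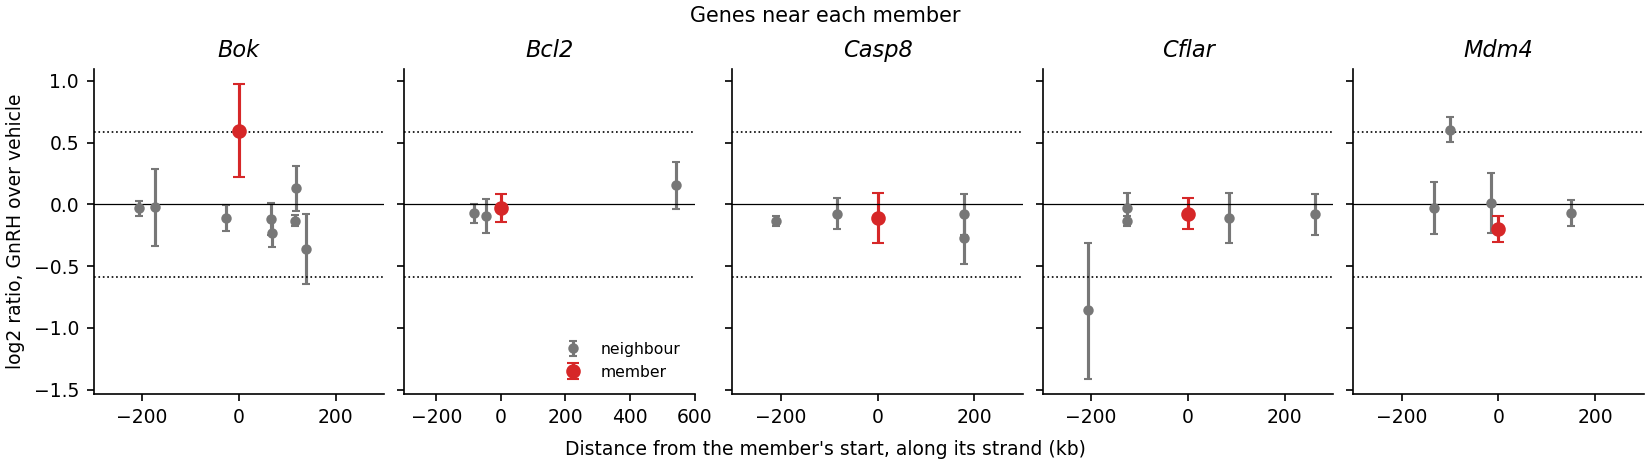
Log2 ratio of GnRH over vehicle, with counting intervals, for each of the 5 genes (red) and the genes with at least 100 UMIs within 200 kb of it (grey), against the distance between gene starts in kb along the strand of the member. Bok at 0.59 stands above its 8 neighbours, and Ppp1r15b, at 0.61, is the one high gene near Mdm4.

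The wider pathway was described from a list of 99 genes of the BCL2 family, caspases, death receptor signalling, inhibitors of apoptosis, p53 and DNA damage, written with earlier results of these data known. Of these, 13 were in the table and 11 had at least 100 UMIs. In all, 3 of the 11, namely Btg2, Bag2 and Bok, were higher with GnRH by 1.5-fold or more, 0 were at least 1.5-fold lower and 8 lay within 1.5-fold. This is 27.3% of the 11, beside 2.44% of all 409 genes, and the median log2 ratio was 0.06, beside -0.09. All 3 genes were known to be high when the list was written, so nothing is read from this difference.

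Bag2, a partner of heat shock chaperones, was counted at 1485 and 2561 UMIs with a log2 ratio of 0.80 (0.70 to 0.89), and overlaps an unclassified transcript on the opposite strand. Pdcl3, a phosducin-like protein of the cytosol, was counted at 2203 and 3073 UMIs with a log2 ratio of 0.49 (0.41 to 0.57). Other BCL2 family genes and caspases were not analysed here. Phlpp1, a phosphatase that opposes survival signalling, was at 0.15 (-0.03 to 0.34). Xrcc5, which joins broken DNA ends, was at 0.06 (-0.14 to 0.27). Stk17b, a kinase related to the death-associated kinases, was at -0.08 (-0.25 to 0.09). These 3 had intervals that included 0. Tmbim1, with 15 and 16 UMIs, and the receptor gene Tnfrsf11a, with 0 in both libraries, were under the minimum.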

How the data were processed

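Per the labels, 1 vehicle and 1 GnRH library of LβT2 cells were made with version 2 of the 3′ chemistry. With Cell Ranger version 1.3 the authors produced unnormalised UMI counts for each gene in each cell, and the submitters' processing notes name mm10. The deposited counts are whole numbers without normalisation, for called cells only. The annotation and the use of strand in counting were not given in the sources used here. The table analysed here held the first 1068 of 27998 listed genes (3.81%), 1062 of them placed, all on chromosome 1, and 1 incomplete row was left out. Barcodes were not paired with columns, so barcodes shared by the libraries could not be counted. Gene positions are those of GENCODE release M21 (GRCm38).

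UMIs were summed per library and scaled to CPM by the total of the analysed genes. Intervals are exact Poisson for sums, Clopper-Pearson for shares and conditional binomial for ratios. A count of 0 was read as at most 3 UMIs per library, a fixed limit that is lower than the upper bound of the two-sided Poisson interval. Size calls needed at least 100 UMIs over both libraries and 1.5-fold. Named genes were the 5, the listed pathway genes and neighbours with at least 100 UMIs, and the 3 genes most correlated with each. Inha, Inhbb and Col3a1 came from the list of cell type markers, Tmbim1 and Tnfrsf11a are the listed pathway genes under the minimum, and Nuak2 was named, after its value was seen, as the gene just below the 1.5-fold limit. The members, lists and classes were chosen with earlier results of these data known. Doublets were not called, and an alternative dropped the 5% deepest cells of each library. Other alternatives changed the scaling, the UMI minimum, the cells kept and the expected spread. With 1 library per treatment, edgeR's test was not run. The code was tested on simulated data. Python 3.11.15, numpy 2.4.6, scipy 1.17.1 and, for TMM factors, edgeR 4.0.16 in R 4.3.3 were used.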

Additional observations from a re-analysis of the deposited data

How the results depend on the processing

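No paired analysis was possible because only 1 library represents each treatment, which leaves nothing to test. The 40 log2 ratios of the 5 genes under 8 alternatives (4 other scalings, totals without Btg2, the 2 filters on cells, and thinning to 300 UMIs) all lay within their main counting intervals. The median of all genes shifted by at most 0.09. The Bok call at 1.5-fold was lost under the mean of CPM per cell (1.43-fold) and without the 5% of cells with most UMIs (1.47-fold), and kept under the other 6, at 1.52-fold to 1.84-fold. Thinning, which lowers depth, took the shares of cells in the vehicle and GnRH libraries to 2.20% and 3.93% for Bok, 26.1% and 25.04% for Bcl2, 10.6% and 9.77% for Casp8, 23.9% and 23.2% for Cflar, and 33.6% and 27.1% for Mdm4. Leaving out the deepest cells moved none of the 10 shares beyond its interval. Spread passed 1.5 for Bcl2 under the plain Poisson expectation, which ignores the totals of cells (1.63 in the vehicle, 1.53 in the GnRH library), for Mdm4 in the vehicle library likewise (1.68), and for Bcl2 in the vehicle library without the deepest cells (1.502). It fell under 1.5 for Mdm4 in the GnRH library after thinning (1.34). The cause was not tested. With at least 20 UMIs, 18 genes were 1.5-fold higher and 17 lower, and with at least 1 UMI 34 and 40, since lower minimums take in genes with few UMIs. The pathway count of 3 was the same under TMM and with at least 20 UMIs, the settings it was counted under, and it includes Bok, whose call was lost under the 2 settings above. With Btg2 classes from thinned cells, which hold fewer cells at the top, Bcl2 was at 971 CPM and Cflar at 834 CPM in the class of 14 to 26. In the class of 27 or more Bok was at 53.1, Casp8 at 478, Cflar at 478 and Mdm4 at 1858 CPM. The Btg2 classes of vehicle-treated cells, the filter on cells under 300 UMIs within classes, the cell richest in a gene and the scaled detection were chosen after seeing the data. Of the 5 genes Bok had the fewest UMIs, 250 in all.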
